A study of Mus musculus with 4 samples.

Results

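The 9 genes described here, Nfs1, Iscu, Hscb, Glrx5, Isca1, Isca2, Nubp1, Ciao1 and Mms19, encode proteins of iron-sulfur cluster assembly in mitochondria and in the cytosol. They were chosen as a named gene family, with earlier results of these data known, and taken by symbol from the 49585 genes of the expression table, and all 9 belonged to the 12669 genes with at least 1 FPKM (fragments scaled to the length of the gene and to the depth of the library) in at least 1 library. RNA came from 4T1, a mouse mammary carcinoma line used as a model of triple-negative breast cancer (TNBC). The 2 clones, each grown from a single cell and selected for high (4T1-HM) or low (4T1-LM) metastatic capacity, were cultured for 48 h with 50 µmol/L deferasirox (DFX), an iron chelator, or with its solvent DMSO. Each condition, HM_Ctrl, HM_DFX, LM_Ctrl and LM_DFX, gave 1 library, so no value below has a replicate and no p-value can be given. Each metastatic class is likewise 1 clone, so the class and the clone cannot be told apart.

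Iron-sulfur clusters are small inorganic cofactors that carry electrons, bind substrates or hold the fold of enzymes in respiration, the citric acid cycle, DNA replication and DNA repair. In mitochondria the cysteine desulfurase Nfs1 delivers sulfur to the scaffold Iscu, on which iron and sulfur are joined. The co-chaperone Hscb and the chaperone Hspa9 then pass the cluster to the glutaredoxin Glrx5, and Isca1 and Isca2 take part in the making of the larger, cubic clusters. Cytosolic and nuclear proteins are served by a separate machinery, in which Nubp1 and Nubp2 form a scaffold and Ciao1 and Mms19 belong to the complex that hands clusters to their acceptors. Iron is a building block of every such cluster, and DFX binds iron.

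The promoters of 4 genes are shown because these genes stand for the patterns described below: Nfs1 and Nubp1 were lower under DFX in both clones, Isca2 differed in opposite directions in the clones, and Glrx5 differed between the clones with little difference under DFX. Each is the 250 bases before the RefSeq transcription start on GRCm38.p6 (mm10), written 5′ to 3′ on the strand of the gene. They lie at chr2:156144187-156144436 on the minus strand (Nfs1), chr16:10411688-10411937 on the plus strand (Nubp1), chr12:84773020-84773269 on the plus strand (Isca2) and chr12:105032368-105032617 on the plus strand (Glrx5). Capitals mark matches, on either strand, to CCAAT (the CCAAT box, read as ATTGG on the other strand) or CCGGAA (an ETS core, read as TTCCGG).
Nfs1: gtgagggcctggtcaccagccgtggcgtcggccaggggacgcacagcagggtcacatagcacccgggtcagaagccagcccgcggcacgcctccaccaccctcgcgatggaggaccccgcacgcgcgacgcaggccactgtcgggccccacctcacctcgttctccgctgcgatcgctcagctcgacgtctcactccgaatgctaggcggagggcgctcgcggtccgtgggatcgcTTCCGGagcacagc
Nubp1: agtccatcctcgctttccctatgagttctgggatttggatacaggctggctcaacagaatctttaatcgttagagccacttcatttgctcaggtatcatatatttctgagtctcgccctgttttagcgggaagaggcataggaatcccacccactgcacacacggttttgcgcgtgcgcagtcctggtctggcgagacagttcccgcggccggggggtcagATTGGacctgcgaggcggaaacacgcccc
Isca2: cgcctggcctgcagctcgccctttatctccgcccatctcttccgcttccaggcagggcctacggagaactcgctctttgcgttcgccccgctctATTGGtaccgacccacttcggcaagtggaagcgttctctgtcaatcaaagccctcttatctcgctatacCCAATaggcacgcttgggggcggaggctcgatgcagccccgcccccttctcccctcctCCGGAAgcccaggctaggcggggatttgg
Glrx5: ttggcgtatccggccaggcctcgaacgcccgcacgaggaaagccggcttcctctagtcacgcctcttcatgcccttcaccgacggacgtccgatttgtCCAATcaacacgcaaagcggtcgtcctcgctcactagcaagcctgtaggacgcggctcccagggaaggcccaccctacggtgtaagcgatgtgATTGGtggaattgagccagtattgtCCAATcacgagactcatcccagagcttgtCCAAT

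The Nfs1 window held 1 CCGGAA, whose first base lay 14 bases before the start, and no CCAAT. The Nubp1 window held 1 CCAAT, 29 bases before the start. In Isca2 there were 2 CCAAT and 1 CCGGAA, and in Glrx5 there were 4 CCAAT. Promoter windows were matched for 7 of the 9 genes. Among the others, Isca1 held 2 CCAAT and 1 CCGGAA, Ciao1 held 2 CCGGAA, and Mms19 held 1 CCAAT in each of its windows. Mms19 was also the only one of the 7 genes with CACGTG, the E-box. That motif contains ACGTG, the core of the hypoxia response element, on both strands. The NRF1 motif GCGCATGCG was found in none of the 7. Across all 32851 windows of the same length, CCAAT was present in 33.8%, CCGGAA in 12.0%, ACGTG in 16.6%, CACGTG in 6.02% and the NRF1 motif in 1.45%. These matches describe the letters of the windows and are not evidence of binding.

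The total fragments per library, solved from the deposited values as the depth that FPKM is scaled to, lay between 14363065 (HM_DFX) and 21883852 (LM_DFX). The transferrin receptor Tfrc, an mRNA that is stabilised when iron is scarce, was higher under DFX in both clones, from 102 to 175 FPKM in 4T1-HM and from 107 to 188 FPKM in 4T1-LM. The other genes listed to check chelator action did not all differ alike. Fth1 was lower under DFX, from 2551 to 1587 FPKM in 4T1-HM and from 2204 to 1552 FPKM in 4T1-LM. Ftl1 was higher in 4T1-HM, from 1254 to 1803 FPKM, and lower in 4T1-LM, from 1610 to 1463 FPKM. Ndrg1 was higher in both, from 177 to 577 FPKM in 4T1-HM and from 49.1 to 613 FPKM in 4T1-LM. The epithelial markers Epcam, Krt8, Krt18 and Cdh1 were at or above 13.5 FPKM in every library. Esr1 was at most 0.529 FPKM, Pgr was listed at 0, and Erbb2 reached between 3.80 and 12.5 FPKM. Of 5 markers of leukocytes, endothelium and adipocytes, none exceeded 0.123 FPKM, and Cd3e and Adipoq were listed at 0 throughout. The summed level of the 4 epithelial markers was lower under DFX, at 443 against 1487 FPKM in 4T1-HM and 921 against 2022 FPKM in 4T1-LM, with all 4 lower in both clones. Their part in the results below was not tested. FPKM gives a gene's share of a library's RNA, so less RNA per cell and fewer cells with the RNA cannot be told apart.

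Glrx5 was the most abundant of the 9 genes in every library, and Nfs1 had the lowest value in 3 of the 4. Glrx5 alone made up between 47.5% (HM_Ctrl) and 58.6% (LM_Ctrl) of the summed FPKM of the 9 genes. It stood above 95.6% to 97.5% of expressed genes, whereas Nfs1 in HM_DFX stood above 38.2% of them. FPKM is scaled to gene length, so these levels may be compared between genes. In HM_Ctrl the order was Glrx5, Isca2, Nubp1, Iscu, Ciao1, Hscb, Mms19, Isca1 and Nfs1. The counting intervals (95%, exact) of neighbours overlapped between Nubp1, Iscu and Ciao1, and again between Mms19, Isca1 and Nfs1, so these neighbours are not resolved. LM_Ctrl had a different order, with Nubp1 second and Nfs1 sixth, and there the intervals of Ciao1, Iscu and Nfs1 overlapped in turn, as did those of Hscb, Isca1 and Mms19. Under DFX Nfs1 was ninth in both clones, but in HM_DFX its interval (3.73 to 4.88 FPKM) overlapped that of Mms19 (4.56 to 5.27 FPKM), and only in LM_DFX was it resolved from its neighbour. The summed level of the 9 genes was 186 FPKM with DMSO and 164 with DFX in 4T1-HM, and 238 and 228 FPKM in 4T1-LM. Without Glrx5 it was 97.9, 77.3, 98.8 and 95.4 FPKM in that order, so that HM_DFX was the lowest of the 4 and the other 3 lay close together.

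**Figure D1:**
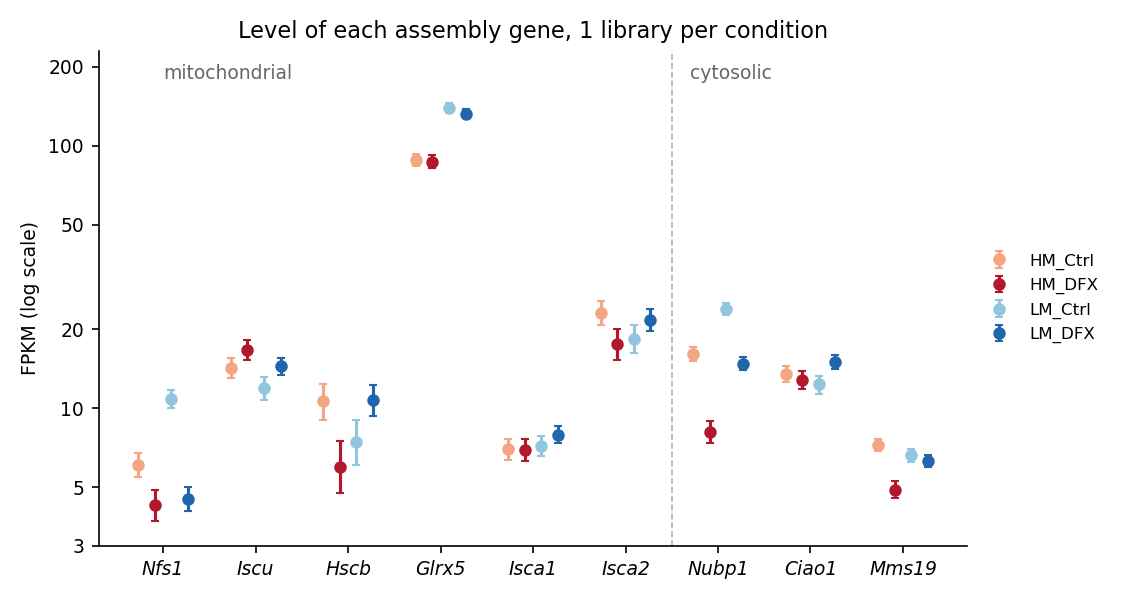
FPKM (log scale) of the 9 iron-sulfur cluster assembly genes in the 4 libraries, with mitochondrial genes left and cytosolic genes right of the dashed line. Points are single libraries and bars are 95% exact intervals of counting error only. Glrx5 lies above all others, and Nfs1 in LM_Ctrl (10.9 FPKM) lies apart from its other 3 libraries (4.28 to 6.08 FPKM).

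Changes are given as the log2 ratio of FPKM + 1, on which the changes of weakly expressed genes come out too small. The interval given beside a change belongs to the ratio of recovered fragment shares, which has no pseudocount, and covers counting error but not the variation between cultures. A change of at least 2-fold on the first scale was counted as past the threshold. Under DFX none of the 9 genes passed it in 4T1-HM, where 19.3% of all expressed genes did in either direction. In 4T1-LM 1 of the 9 genes passed, Nfs1, against 15.8% of all expressed genes. At 1.5-fold, 2 of 9 passed in 4T1-HM (Nubp1 and Hscb) and 2 of 9 in 4T1-LM (Nfs1 and Nubp1), with 42.1% and 36.4% of all expressed genes. The set as a whole thus had no more genes past either threshold than the share over all genes would give.

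The median change of the 9 genes was -0.38 in 4T1-HM and 0.13 in 4T1-LM, beside -0.10 and -0.04 over all expressed genes. Relative to those medians it was -0.27 and 0.17. In 4T1-HM 8 of 9 genes were lower under DFX, beside 55.9% of all expressed genes. However, the direction of Isca1, Glrx5 and Ciao1 flipped when libraries were scaled by the median ratio of all genes. That scaling left 5 lower and moved the all-gene median from -0.10 to 0. Under scaling to the 75th percentile the direction of Isca1 and Glrx5 flipped. In 4T1-LM 5 of 9 were higher and 4 lower, beside 52.6% of all expressed genes lower. Under median-ratio scaling 6 of 9 were higher, and Mms19 flipped to 0.0029. By counting error, 1 gene was above 0 in 4T1-HM (Iscu), 5 were below (Nfs1, Hscb, Isca2, Nubp1 and Mms19) and the intervals of 3 held 0. Intervals were above 0 for 32.6% and below 0 for 43.5% of the 12621 expressed genes with recovered fragments, so that a call by counting error is common over all genes. In 4T1-LM, 4 were above (Iscu, Hscb, Isca2 and Ciao1), 2 were below (Nfs1 and Nubp1) and the intervals of 3 held 0, against 35.2% above and 40.2% below over all genes with fragments. Of those 3, Glrx5 and Isca1 excluded 0 at longer possible gene lengths (given with each gene below).

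**Figure D2:**
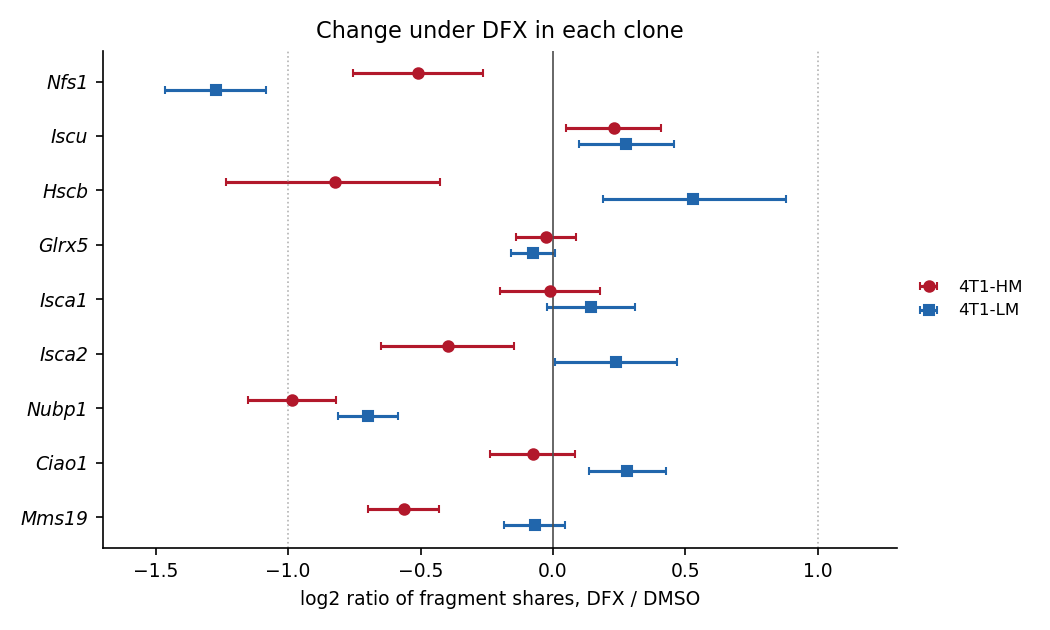
Log2 ratio of fragment shares, DFX against DMSO, for each gene in 4T1-HM (circles) and 4T1-LM (squares), 1 library per condition. Bars are 95% exact intervals of counting error only, and dotted lines mark 2-fold. Nfs1 and Nubp1 lie left of 0 in both clones, Iscu lies right of 0 in both, and Hscb and Isca2 lie on opposite sides.

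Nfs1 (chr2:156123639-156144186, minus strand), which takes sulfur from cysteine, was measured at 6.08 FPKM with DMSO and 4.28 with DFX in 4T1-HM, and at 10.9 and 4.50 in 4T1-LM. The LM_Ctrl library stood above the other 3. The log2 change under DFX was -1.11 in 4T1-LM (fragment ratio -1.27, interval -1.47 to -1.08), a level 2.42-fold lower in FPKM. In 4T1-HM it was -0.42 (fragment ratio -0.51, interval -0.75 to -0.26), and the intervals of the clones did not overlap. With DMSO, HM_Ctrl was lower than LM_Ctrl by a log2 difference of -0.75 (interval -1.03 to -0.65). Under DFX the difference was -0.06 (interval -0.32 to 0.17) and turned to 0.0011 under 75th percentile scaling, so the clones were not distinguished by counting error. The exons of Nfs1 overlap Gm28036 on the same strand over 7.09% of their bases, and Gm28036 was listed at 0 FPKM in every library. They overlap Romo1 on the other strand over 4.10% of their bases. Romo1 was itself at 38.4, 21.3, 51.7 and 33.8 FPKM in the same order of libraries. Whether the counting used strand is not given in the sources used here. The part of either overlap in the Nfs1 values was not tested.

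Iscu (chr5:113772748-113778288, plus strand), the scaffold on which the cluster is first built, was at 14.2 FPKM in HM_Ctrl and 16.7 in HM_DFX, and at 11.9 in LM_Ctrl and 14.4 in LM_DFX. It was the only one of the 9 genes whose interval lay above 0 in both clones. The changes under DFX were 0.22 in 4T1-HM (interval 0.05 to 0.41) and 0.26 in 4T1-LM (interval 0.10 to 0.46). The difference between the clones was similar in size, 0.24 with DMSO (interval 0.06 to 0.44) and 0.19 with DFX (interval 0.04 to 0.37). In its transcripts 18.5% of 31-base words also occur in other genes, most of them in Gm16437, so part of its reads may be assigned ambiguously. The ratio of desulfurase to scaffold FPKM, Nfs1 to Iscu, was 0.428 with DMSO and 0.257 with DFX in 4T1-HM, and 0.914 with DMSO and 0.312 with DFX in 4T1-LM. The 4T1-LM culture thus had close to equal levels of both RNAs with DMSO and less Nfs1 than Iscu with DFX.

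Hscb (chr5:110829070-110839777, minus strand), the co-chaperone that binds the loaded scaffold, was at 10.6 FPKM with DMSO and 6.001 with DFX in 4T1-HM, and at 7.45 and 10.8 in 4T1-LM. HM_Ctrl and LM_DFX were the high libraries, and HM_DFX and LM_Ctrl the low ones. Its change was -0.73 in 4T1-HM (interval -1.23 to -0.43) and 0.48 in 4T1-LM (interval 0.19 to 0.88). Accordingly, HM was above LM with DMSO, by 0.46 (interval 0.15 to 0.88), and below it with DFX, by -0.75 (interval -1.24 to -0.46). Hscb had the fewest fragments of the 9 genes, 161, 78, 106 and 213 in the order HM_Ctrl, HM_DFX, LM_Ctrl and LM_DFX, and the widest intervals. Its chaperone partner Hspa9 was more than 2-fold higher under DFX in both clones (values below), and Hscb FPKM relative to Hspa9 FPKM was 4.97%, 1.05%, 3.79% and 2.38% in that order.

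Glrx5 (chr12:105032689-105040910, plus strand), the glutaredoxin that receives the cluster from Iscu, was at 88.4 FPKM in HM_Ctrl and 86.8 in HM_DFX, and at 140 in LM_Ctrl and 133 in LM_DFX. Both 4T1-LM libraries were above both 4T1-HM libraries. HM against LM was -0.65 with DMSO (interval -0.76 to -0.56) and -0.60 with DFX (interval -0.71 to -0.51). The change under DFX was -0.03 in 4T1-HM, with an interval from -0.14 to 0.09 and a flip to 0.11 under median-ratio scaling. In 4T1-LM it was -0.07, with an interval from -0.16 to 0.01. These intervals rest on the shortest of 5 gene lengths that gave whole fragments, 930 bases. At the next, 1860 bases, the interval in 4T1-LM was -0.13 to -0.02 and excluded 0, as it did at every longer length. That in 4T1-HM held 0 at every length. The gene annotation GENCODE M21 gives Glrx5 3682 exon bases, and the nearest possible length, 3720 bases, gave -0.12 to -0.03 in 4T1-LM. The length used in the counting is not known, but only at 930 bases did the 4T1-LM interval hold 0.

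Isca1 and Isca2 encode related proteins that act together in the maturation of the cubic clusters. Isca1 (chr13:59755409-59769810, minus strand) was at 6.98 FPKM with DMSO and 6.93 with DFX in 4T1-HM, and at 7.19 and 7.94 in 4T1-LM. Its 4 libraries differed the least of the 9 genes in FPKM, and the intervals of both DFX changes held 0, from -0.20 to 0.18 in 4T1-HM and from -0.02 to 0.31 in 4T1-LM. The second of these rests on the shortest of 3 possible gene lengths, 4288 bases. It was 0.03 to 0.26 at the next, 8576 bases, and 0.05 to 0.24 at the longest, 12864 bases. GENCODE M21 gives Isca1 10680 exon bases. Other genes share 17.4% of its 31-base words. Isca2 (chr12:84773270-84775089, plus strand) was at 23.1 FPKM in HM_Ctrl and 17.6 in HM_DFX, and at 18.4 in LM_Ctrl and 21.7 in LM_DFX. As with Hscb, HM_Ctrl and LM_DFX were the higher libraries. The change of Isca2 was -0.38 in 4T1-HM (interval -0.65 to -0.15) and 0.23 in 4T1-LM (interval 0.01 to 0.47). HM against LM was 0.32 with DMSO (interval 0.09 to 0.57) and -0.29 with DFX (interval -0.55 to -0.06).

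Nubp1 (chr16:10411948-10424428, plus strand), a nucleotide-binding scaffold protein of the cytosolic machinery, was at 16.1 FPKM with DMSO and 8.14 with DFX in 4T1-HM, and at 24.0 and 14.8 in 4T1-LM. Both DFX libraries were below both DMSO libraries. Its change was -0.91 in 4T1-HM (interval -1.15 to -0.82) and -0.66 in 4T1-LM (interval -0.81 to -0.59), equal to levels 1.98-fold and 1.62-fold lower in FPKM. It was also lower in HM than in LM, by -0.55 with DMSO (interval -0.69 to -0.45) and by -0.79 with DFX (interval -1.02 to -0.70). Nubp2, its partner in the scaffold, differed the other way under DFX, from 24.0 to 35.5 FPKM in 4T1-HM and from 24.98 to 34.1 FPKM in 4T1-LM. The ratio of Nubp1 to Nubp2 was 0.672 with DMSO and 0.229 with DFX in 4T1-HM, and 0.960 and 0.433 in 4T1-LM. Nubp1 shares 36.9% of its exon bases with Tvp23a on the other strand, a gene that was at most 0.528 FPKM in any library.

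Ciao1 and Mms19 belong to the complex that delivers clusters to cytosolic and nuclear proteins, Mms19 being the subunit that docks many DNA replication and repair enzymes. Ciao1 (chr2:127240938-127247816, minus strand) was at 13.5 FPKM in HM_Ctrl and 12.8 in HM_DFX, and at 12.3 in LM_Ctrl and 14.98 in LM_DFX. The LM_DFX library was the highest, with a change of 0.26 in 4T1-LM (interval 0.14 to 0.43), while the change in 4T1-HM was -0.07 (interval -0.24 to 0.08) and flipped to 0.06 under median-ratio scaling. Mms19 (chr19:41941086-41981157, minus strand) was at 7.25 FPKM with DMSO and 4.91 with DFX in 4T1-HM, and at 6.62 and 6.31 in 4T1-LM. HM_DFX was the low library, with a change of -0.48 in 4T1-HM (interval -0.70 to -0.43), and the interval in 4T1-LM, from -0.18 to 0.05, held 0. For Mms19, HM against LM was 0.12 with DMSO (interval 0.01 to 0.25) and -0.31 with DFX (interval -0.49 to -0.23). For Ciao1 it was 0.12 with DMSO (interval -0.02 to 0.29) and -0.21 with DFX (interval -0.37 to -0.08). Zdhhc16 overlaps Mms19 on the other strand over 9.21% of its exon bases and was between 19.7 and 25.6 FPKM.

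The response in 4T1-HM minus that in 4T1-LM had a median of -0.24 over the 9 genes, beside -0.08 over all expressed genes. It was below 0 for 7 genes and above 0 for 2, Nfs1 (0.69) and Glrx5 (0.05). The median over all expressed genes was itself below 0, and their share below 0 was not computed, so this count has no background beside it. The counting intervals of the clones did not overlap for 6 genes, Nfs1, Isca2, Hscb, Nubp1, Ciao1 and Mms19, as against 46.0% of all expressed genes with fragments. Signs were opposite for 4 genes, and for 2 of them, Isca2 and Hscb, both intervals excluded 0. Over all expressed genes 23.0% had opposite signs, and 8.07% of those with fragments had intervals on opposite sides of 0. Isca2 and Hscb kept opposite signs under both other scalings, whereas Isca1 did so under neither and Ciao1 only under 75th percentile scaling. Glrx5 took opposite signs under both other scalings, and Mms19 under median-ratio scaling. The count was thus 4 under each scaling, but not of the same genes. With 1 culture per condition, none of these differences between clones can be set against the variation between cultures.

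Between the clones with DMSO none of the 9 genes passed 2-fold, against 6.80% of all expressed genes. At 1.5-fold 2 did (Nfs1 and Glrx5, both lower in HM) against 19.2%. The median difference was 0.12, beside 0.01 over all expressed genes. By counting error 4 genes were higher in HM_Ctrl than in LM_Ctrl (Iscu, Hscb, Isca2 and Mms19), 3 were lower (Nfs1, Glrx5 and Nubp1) and the intervals of 2 held 0 (Isca1 and Ciao1), beside 33.4% higher and 29.8% lower over all genes with fragments. Under DFX again none passed 2-fold, against 8.36%, and 3 passed 1.5-fold (Hscb, Glrx5 and Nubp1, all lower in HM) against 24.5%. There the median was -0.29, beside -0.05 over all expressed genes, and by counting error 1 gene was higher in HM_DFX than in LM_DFX (Iscu), 7 were lower and the interval of 1 (Nfs1) held 0, beside 30.3% higher and 39.0% lower over all genes with fragments. These comparisons use the same libraries as those of DFX with DMSO and are not independent of them.

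**Figure D3:**
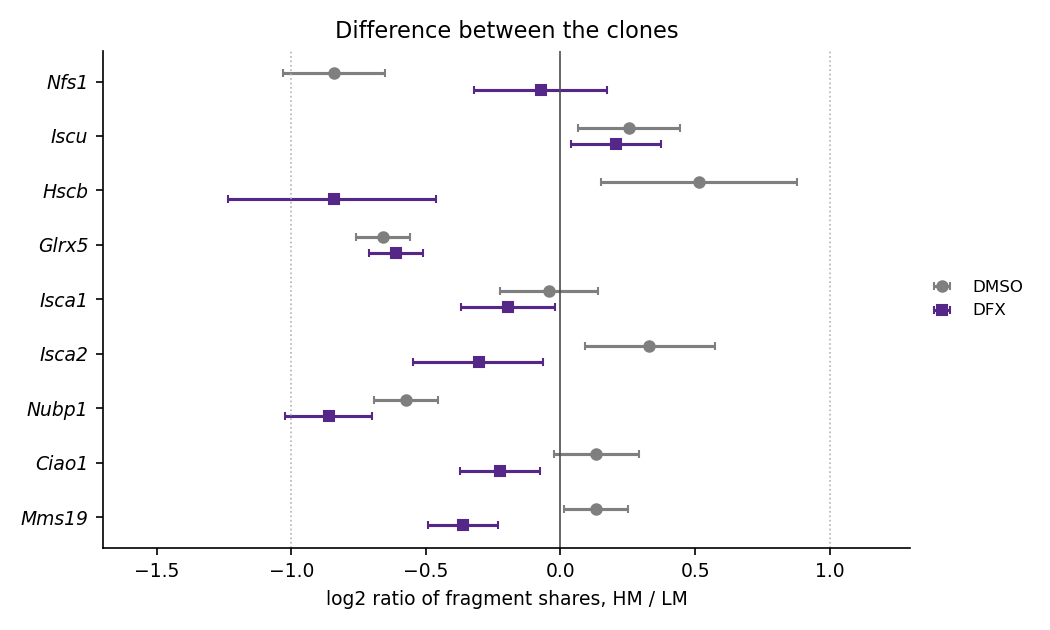
Log2 ratio of fragment shares, HM against LM, for each gene with DMSO (circles) and with DFX (squares), 1 library per condition. Bars are 95% exact intervals of counting error only, and dotted lines mark 2-fold. Glrx5 and Nubp1 lie left of 0 in both media, and Nfs1 does so with DMSO. Hscb, Isca2 and Mms19 move from right to left of 0, as does the point of Ciao1, whose interval with DMSO holds 0.

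The partners and clients of the pathway were described from lists of 62 further genes, of which 60 were expressed. In 4T1-HM, 42 of the 60 were lower under DFX and 18 higher, with a median of -0.25, and 3 were past 2-fold upwards and 4 downwards. Over all expressed genes 55.9% were lower, 6.93% were past 2-fold upwards and 12.4% downwards. In 4T1-LM, 39 were lower and 21 higher, with a median of -0.11, and 1 was past 2-fold upwards and 3 downwards. There the shares over all expressed genes were 52.6%, 7.09% and 8.72%. Median-ratio scaling left 37 and 33 lower. Of the 22 expressed assembly partners the median was -0.09 in 4T1-HM and -0.02 in 4T1-LM, and both medians turned above 0 (0.03 and 0.04) under median-ratio scaling. Individual partners differed more than this. Hspa9, the mitochondrial chaperone that works with Hscb, was at 214 FPKM in HM_Ctrl and 569 in HM_DFX, and at 196 in LM_Ctrl and 453 in LM_DFX. Both DFX libraries were above both DMSO libraries, with changes of 1.41 and 1.20. No fragments were recovered for Hspa9, so it has no counting interval. Iba57, which acts with Isca1 and Isca2, was at 1.42, 5.06, 0.807 and 2.61 FPKM in that order. Its changes were 1.33 in 4T1-HM and 0.999 in 4T1-LM, the second just inside 2-fold on this scale. Without the pseudocount it was 3.57-fold and 3.23-fold higher in FPKM. The fragment ratios were 1.84 (interval 1.53 to 2.15) and 1.69 (interval 1.29 to 2.11). Ciapin1, an electron carrier of the cytosolic machinery, was at 8.28, 18.9, 10.0 and 16.3 FPKM, with changes of 1.10 and 0.65. Fdxr, the reductase that starts the electron supply to the mitochondrial scaffold, went the other way, at 6.28, 2.03, 5.21 and 2.69 FPKM, with changes of -1.26 and -0.75.

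Among the 34 expressed genes for proteins that carry iron-sulfur clusters, 27 were lower under DFX in 4T1-HM and 26 in 4T1-LM, with medians of -0.35 and -0.17, beside 55.9% and 52.6% lower and medians of -0.10 and -0.04 over all expressed genes. In these lists 26 and 22 genes were lower under median-ratio scaling. The nuclear clients had medians of -0.54 in 4T1-HM and -0.32 in 4T1-LM, with 9 and 8 of 10 lower, or 8 and 7 under median-ratio scaling. Dna2, a nuclease and helicase of DNA replication, was at 2.19 FPKM with DMSO and 0.332 with DFX in 4T1-HM, and at 3.56 and 0.459 in 4T1-LM. Mutyh, a glycosylase of base excision repair, was at 3.25, 0.693, 5.33 and 1.33 FPKM in that order. The DFX libraries of both genes were below their DMSO libraries, with changes of -1.26 and -1.64 for Dna2 and -1.33 and -1.44 for Mutyh. With 0.1 in place of 1 as pseudocount these were -2.41 and -2.71 for Dna2 and -2.08 and -1.93 for Mutyh. Ddx11, a helicase of sister chromatid cohesion, was at 10.1, 6.01, 14.7 and 5.40 FPKM, with changes of -0.66 and -1.29. Of the 15 mitochondrial clients 13 were lower in 4T1-HM and 12 in 4T1-LM, and under median-ratio scaling 13 and 9 were. Etfdh was higher in both clones, at 4.53, 9.21, 3.69 and 6.17 FPKM, with changes of 0.89 and 0.61. Fech, which inserts iron to form haem, was at 14.3, 6.50, 14.2 and 9.96 FPKM. Its changes were -1.03 in 4T1-HM and -0.47 in 4T1-LM, the first falling short of 2-fold under both other scalings. Cytosolic clients had 5 of 9 lower in 4T1-HM and 6 of 9 in 4T1-LM, with medians of -0.21 and -0.31, and none passed 2-fold. Neither did the iron sensors Ireb2 and Fbxl5 or the mitochondrial iron importers Slc25a28 and Slc25a37.

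**Figure D4:**
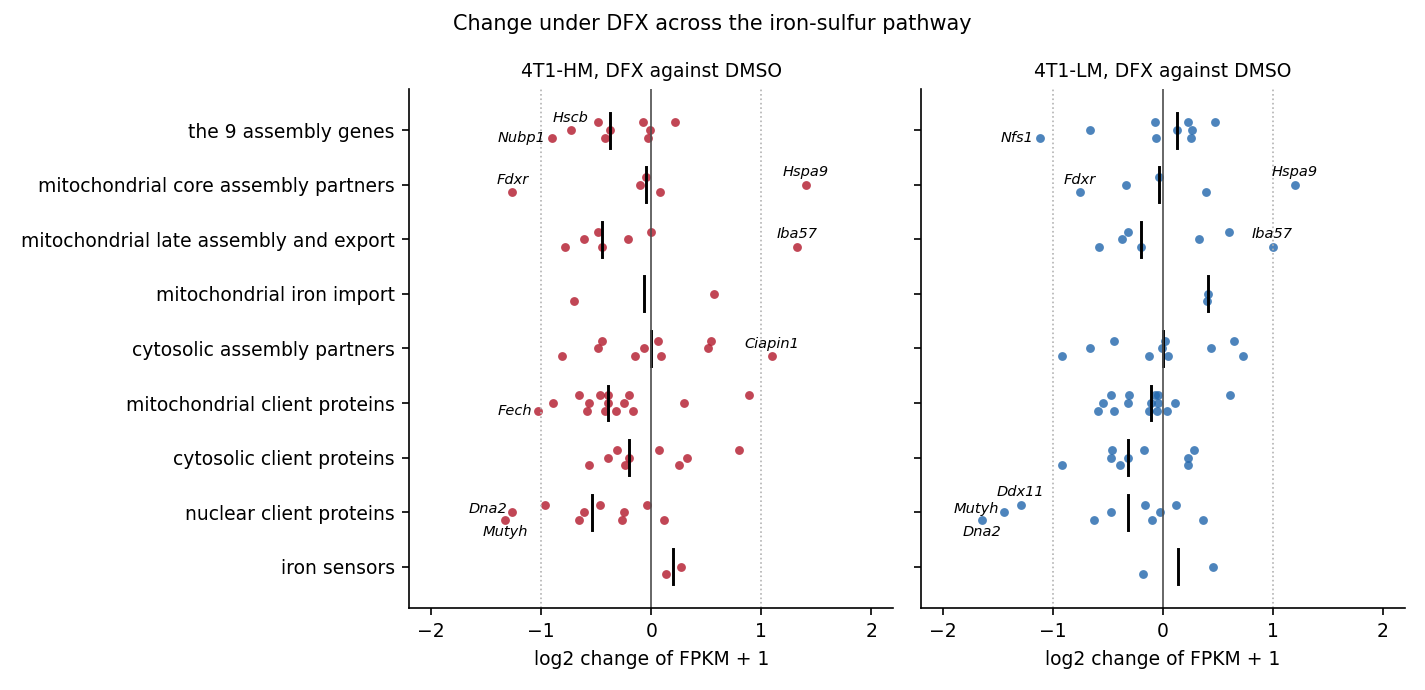
Log2 change of FPKM + 1 under DFX in 4T1-HM (left) and 4T1-LM (right) for the 9 assembly genes and the expressed genes of 8 pathway lists. Each point is a gene, black bars are list medians and dotted lines mark 2-fold. Hspa9 and Iba57 lie farthest to the right and Dna2 and Mutyh farthest to the left, while the 9 assembly genes, apart from Nfs1 in 4T1-LM, lie within 2-fold.

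Nfs1 in 4T1-LM had the largest change under DFX of the 9 genes in either clone, although in 4T1-HM the changes of Nubp1, Hscb and Mms19 were larger than its own. Its pattern over the 4 libraries was compared with those of the other pathway genes by the Euclidean distance between log2(FPKM + 1) values centred on their mean. The closest was Fam96a (also named Ciao2a), a cytosolic assembly partner, at a distance of 0.23. It was at 30.4 FPKM in HM_Ctrl and 21.4 in HM_DFX, and at 53.8 in LM_Ctrl and 28.1 in LM_DFX, so LM_Ctrl was the high library here too. Ddx11 followed at 0.30 and Ppat, a client enzyme of purine synthesis, at 0.40, with 13.2, 10.5, 17.0 and 8.59 FPKM. A distance over 4 single libraries describes these libraries only.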

How the data were processed

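Poly(A) RNA of 4 cultures was sequenced as directional libraries of paired-end reads. The submitters' processing notes name FastQC, Trimmomatic, HISAT2, featureCounts and mm10; their versions and the strand setting of the counting are not given in the sources used here. The authors deposited FPKM per gene for each library, without pooling, and no column of per-sample values was left unused. Samples were grouped by their titles.

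Log2 changes were computed from the deposited FPKM with a pseudocount of 1, over the 12669 genes that reached an FPKM of 1 in any library. The 4 comparisons were DFX against DMSO in each clone and HM against LM in each medium, and changes of 2-fold or more were counted. The study's edgeR calls were not repeated, because the spread assumed for single libraries is not given in the sources used here. No test was made, since each condition has 1 library.

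FPKM was turned back into fragments with exon lengths of GENCODE release M21. Of the 18235 genes above 0 with the same coordinates as that release, 96.8% came out whole within 0.02 in all 4 libraries. The lengths of Glrx5, Isca1 and Isca2 differ from that release and were taken as the smallest that gave whole fragments within 0.002, which makes their intervals wide rather than narrow. The solved totals per library, to which FPKM is scaled, were 16745607 (HM_Ctrl), 14363065 (HM_DFX), 15731519 (LM_Ctrl) and 21883852 (LM_DFX) fragments. With lengths solved in the same way for other genes, 12621 of the 12669 expressed genes had fragments. They served for depth and for 95% exact (Clopper-Pearson) intervals, which cover counting error only. The calculations were tested on simulated data.

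The members and all gene lists were chosen with earlier results of these data known. All 9 members are named. From each pathway list up to 4 genes past 2-fold in any comparison are named, by largest change, plus the 3 genes nearest in pattern to the member with the largest change under DFX. Nubp2, Tfrc, Fth1, Ftl1, Ndrg1, Etfdh, Oraov1 and overlapping genes are named for the values they bear on. Results were recomputed with recovered fragments and no pseudocount, with a threshold of 1.5-fold, after scaling to the 75th percentile or by median ratios, with the filter dropped or set on the mean FPKM, and with 0.1 as pseudocount. Promoters are RefSeq windows on GRCm38.p6. Python 3.11.15, scipy 1.17.1 and matplotlib 3.10.9 were used.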

Additional observations from a re-analysis of the deposited data

Results flagged for a closer look

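For 4 of the 9 assembly genes the single 4T1-HM culture and the single 4T1-LM culture differed in opposite directions under DFX, on the scale of log2(FPKM + 1). The change in HM minus that in LM was -1.21 for Hscb, -0.60 for Isca2, -0.33 for Ciao1 and -0.13 for Isca1. The difference was not tested for any of them, since each condition has 1 library. For Hscb and Isca2 the counting intervals excluded 0 in both clones, on either side of 0. For Ciao1 only the interval in 4T1-LM did, and for Isca1 neither did at the shortest gene length that gave whole fragments, while that in 4T1-LM did at the next (0.03 to 0.26). Under median-ratio scaling Ciao1 (0.06 in HM, 0.33 in LM) and Isca1 (0.11 in HM, 0.19 in LM) had the same sign in both clones. There Glrx5 (0.11 in HM, -0.0024 in LM) and Mms19 (-0.37 in HM, 0.0029 in LM) had opposite signs, so the count remained 4. Over all expressed genes 23.0% had opposite signs.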

How the results depend on the processing

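Changes and medians were recomputed under 6 alternatives, and counts past 2-fold also at 1.5-fold. The counts of the 9 genes past the threshold moved only with the threshold itself, from 0 to 2 in HM_DFX against HM_Ctrl, from 1 to 2 in LM_DFX against LM_Ctrl, from 0 to 2 in HM_Ctrl against LM_Ctrl and from 0 to 3 in HM_DFX against LM_DFX. The other 54 of 58 recomputed counts and medians of the 9 genes stayed within the limit set for a move, as did 215 of 216 changes of single members, the exception being Glrx5 in 4T1-HM at 0.11 under median-ratio scaling. Over all results, partners and clients included, 69 of 902 moved and no called value changed sign. With a pseudocount of 0.1 the cytosolic partners and the mitochondrial clients past 2-fold in 4T1-HM went from 1 to 2 each. The cytosolic partner added was lower (Oraov1, 3.42 to 1.52 FPKM), whereas Ciapin1 was higher. The mitochondrial client added was higher (Etfdh, 4.53 to 9.21 FPKM), whereas Fech was lower. At this pseudocount the late assembly genes in 4T1-LM and the cytosolic clients in HM_DFX against LM_DFX went from 0 to 1. Iba57 went from 1.33 to 1.77 in 4T1-HM and from 0.999 to 1.58 in 4T1-LM. The same setting took all genes past 2-fold from 2003 to 3070 in LM_DFX against LM_Ctrl, from 861 to 1557 in HM_Ctrl against LM_Ctrl and from 1059 to 1993 in HM_DFX against LM_DFX. With fragments and no pseudocount these 4 list counts moved alike. The core partners went from 2 to 1 in 4T1-HM and from 1 to 0 in 4T1-LM. That move arose because Hspa9 had no recovered fragments and dropped out of this setting. In FPKM without pseudocount Hspa9 was still 2.66-fold and 2.30-fold higher under DFX. Scaling to the 75th percentile took the mitochondrial clients in 4T1-HM from 1 to 0. Under median-ratio scaling their count stayed at 1, but with 1 higher and 0 lower in place of 0 higher and 1 lower. Both scalings took the late assembly genes in 4T1-LM from 0 to 1. Small changes flipped sign under scaling, as given in the report. No paired analysis was possible because each condition has 1 library and the labels give no replicate numbers. Leaving out a library would leave its condition empty and was not run. Depth limits Hscb most, with 78 fragments in HM_DFX.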
